A study of Homo sapiens with 16 samples.

Results

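The regions described here are the accessible chromatin regions that were found in 1 of 2 ATAC-seq experiments of the same cells. A region was taken when it belonged to the consensus set of experiment 6086, spanned under 1000 bp and overlapped no region of experiment 6211 by even 1 bp. The rule took 17384 of the 56949 regions of experiment 6086, which is 30.5%, and they are called 6086-only regions below. The remaining 39565 regions of that experiment, of which all but 4 overlap a 6211 region, are called the other regions. The sets of regions were made differently: 97.8% of the 6211 regions were exactly 401 bp wide and none was narrower, while 0.125% of the 6086 regions had that width. A wide 6086 region is more likely than a narrow one to touch a window of fixed width, so the shares, widths and gaps below depend in part on how the regions were drawn. In the opposite direction, 643 of the 40844 regions of experiment 6211 (1.57%) overlapped no 6086 region.

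Both experiments used Rh30, an established cell line of alveolar rhabdomyosarcoma, a tumour of the skeletal muscle lineage, in which the fusion protein PAX3-FOXO1 carries an FKBP tag. Experiment 6086 holds cells given 500 nM dTAG47 for 2 h, 4 h and 24 h, and cells given the vehicle DMSO. Experiment 6211 holds cells given the same 500 nM dTAG47 for 0.5 h, 1 h and 2 h, with DMSO cells of its own. Each of the 4 groups of an experiment has 2 libraries, and every group, the DMSO cells included, carries the tagged protein, so no group has untagged cells and dTAG47 without a tagged target was not analysed here. The labels do not say whether the 2 libraries of a group came from separate cultures. A p-value here reflects the spread between these libraries alone, which the test pools over groups and moderates over all regions.

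PAX3-FOXO1 is the fusion of the DNA-binding domains of PAX3, a regulator of muscle precursors, with the activation domain of FOXO1, and it drives fusion-positive rhabdomyosarcoma. It binds mostly distal enhancers, among them ones that are also bound by the myogenic factors MYOD1 and MYOG. dTAG compounds bring an FKBP-tagged protein to an E3 ubiquitin ligase, after which the proteasome destroys it. In ATAC-seq the Tn5 transposase cuts DNA that nucleosomes leave free, so the number of reads in a region is a measure of how open it is over the whole cell population. Fewer cells with an open region and less opening per cell cannot be told apart in such a measure.

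The 6086-only regions were narrow and weak. Their median width was 189 bp (interquartile range 149 to 245 bp, extremes 74 and 996 bp), against 426 bp for the other regions, a contrast that the overlap rule with its fixed 6211 width favours. Their median level was 5.24 CPM (the count of a region scaled to the reads in all regions of its library and by TMM, mean of 8 libraries), against 15.3 CPM for the other regions. Per kilobase of width the medians were 26.8 CPM in the 6086-only regions and 36.6 CPM in the other regions, so the difference was smaller once width was taken into account. Of the 6086-only regions, 15513 (89.2%) lay under 8 CPM, as did 6791 (17.2%) of the other regions. The highest 6086-only region reached 23.5 CPM.

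**Figure D1:**
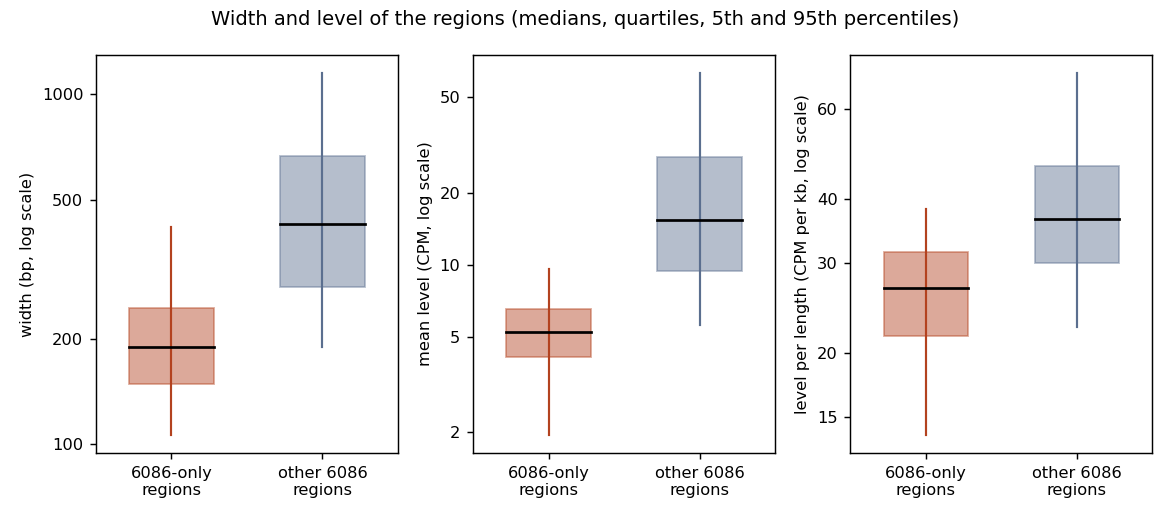
Width in bp, level in CPM and level per kilobase of width, on log scales, of the 17384 6086-only regions and the 39565 other 6086 regions; lines run between the 5th and 95th percentiles, boxes between the 25th and 75th, and black bars mark the medians. The 6086-only regions have medians of 189 bp, 5.24 CPM and 26.8 CPM per kb, each below that of the other regions.

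Most 6086-only regions lay more than 1000 bp from any 6211 region, and a minority stood beside one without touching it. The gap to the nearest 6211 region had a median of 8284 bp, with 974 of the regions within 100 bp, 4250 within 1000 bp, 9300 within 10000 bp and 1082 farther than 100000 bp. The nearest region of their own experiment was a median of 3902 bp away, against 5062 bp for the other regions. At the edge of the rule, 46 regions lay within 10 bp of a 6211 region, with a median width of 142.5 bp and a median level of 2.36 CPM. Another 38 regions overlapped one by 1 to 10 bp and so were left out, with a median width of 145 bp and a median level of 2.54 CPM. At the width limit, 9 regions with a span of 900 to 999 bp were taken, and 4 of 1017 to 1391 bp, at 20.3 to 25.3 CPM, were left out.

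Reads in regions numbered 18038062 to 31308682 per library in experiment 6086 and 9934147 to 18275976 in experiment 6211. The experiment without 24 h libraries also had the lower range of such reads. These sums run over 2 different sets of regions, so they do not give the sequencing depth itself. The part of depth in what became a 6086-only region was not tested. The 6086-only regions, whose counts are lower, also differed more between libraries: the median absolute log2 difference between the 2 libraries of a group was 0.159 for DMSO, 0.135 at 2 h, 0.134 at 4 h and 0.113 at 24 h, against 0.0719 to 0.0994 in the other regions. Spearman correlations across regions between the 2 libraries of a group were 0.910 to 0.952 in the 6086-only regions, where regions are not independent replicates. Of the 17384 regions, 17380 passed the filter on low counts and were tested; the 4 that did not had 0.155 to 0.350 CPM.

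The 6086-only regions held a small share of the reads, which was highest at 24 h. They took 9.32% and 9.24% of the reads in regions in the DMSO libraries, 9.30% and 9.41% at 2 h, 9.52% and 9.41% at 4 h, and 9.93% and 9.94% at 24 h. The group means were 9.28% ± 0.0603 for DMSO, 9.36% ± 0.0803 at 2 h, 9.47% ± 0.0759 at 4 h and 9.93% ± 0.00795 at 24 h (SD, n = 2 libraries each). Both 24 h libraries were above the other 6, while the 2 h libraries overlapped the DMSO range. The 95% Wilson intervals of single libraries were at most 0.0134 percentage points to either side, for counting error only. With 2 libraries against 2, the smallest two-sided p of an exact permutation test is 0.333, so that test could not separate these groups, and no other test of the shares was made.

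At 2 h of dTAG47 the regions that passed the test were mostly less accessible. By the quasi-likelihood test of edgeR, with Benjamini-Hochberg adjustment over the 56945 regions tested, at an adjusted p under 0.05, 405 of the 17380 6086-only regions fell relative to DMSO, which is 2.33%, and 107 rose, which is 0.616%. The 2 h, 4 h and 24 h comparisons share the DMSO libraries. Over all regions tested 4.25% of the regions were called lower and 0.978% higher, so both shares were under this background. The other regions were lower in 5.09% and higher in 1.14% of cases. The 6086-only regions that fell had a median log2 fold change of -0.63 (others -0.48), and those that rose 0.53 (others 0.31). These medians cover called regions alone, and a region with fewer counts needs a larger change to be called. They are therefore no comparison of effect size between the 2 sets. The median over all 6086-only regions was 0.01, against -0.00 in the other regions. Leaving out DMSO library A left 257 lower regions and leaving out 2 h library A left 196, while without 2 h library A or B the higher regions numbered 40 or 48. DESeq2 called 151 lower and 6 higher, and an edgeR fit of the 2 h and DMSO libraries alone called 62 higher.

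**Figure D2:**
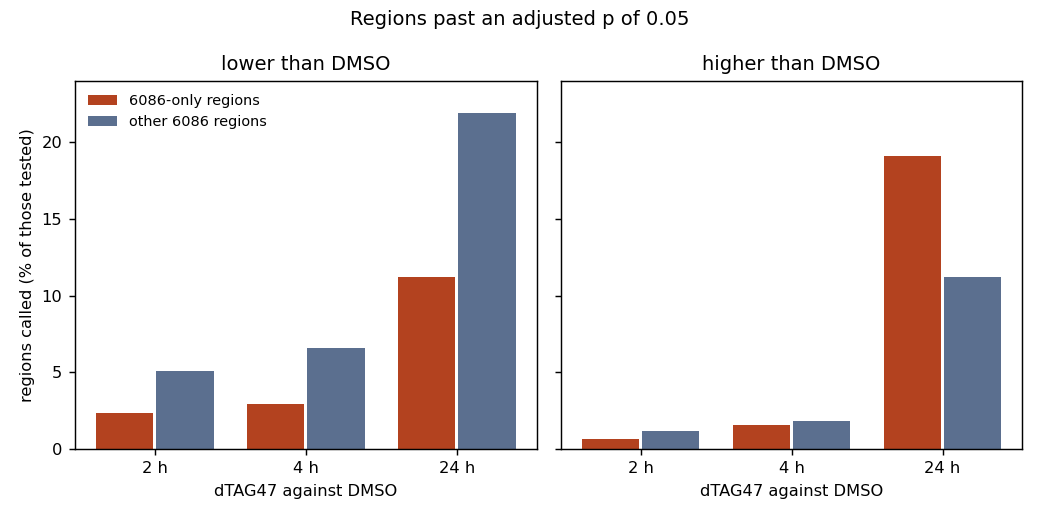
Percentage of tested regions called lower (left) and higher (right) than DMSO at 2 h, 4 h and 24 h of dTAG47, in 6086-only regions and in other 6086 regions, at an adjusted p under 0.05. At 24 h the 6086-only regions were higher in 19.1% and lower in 11.2% of cases, the other regions in 11.2% and 21.9%.

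The losses at 2 h were larger in size than the gains. A fold change of at least 2 with an adjusted p under 0.05 was reached by 51 lower 6086-only regions (0.293%). The background was 0.341%, with 194 regions in all, so this share was near it and is no result about these regions. The same size was reached by 2 higher 6086-only regions (0.0115%, background 0.00351%), and both higher regions of the whole table were 6086-only regions. The deepest loss was at chr15:57944755-57944919, a region of 165 bp that lies 14429 bp from the nearest 6211 region. It had 6.11 and 5.75 CPM in the DMSO libraries, 1.54 and 1.60 CPM at 2 h, 1.08 and 1.28 CPM at 4 h, and 1.18 and 0.760 CPM at 24 h. Every treated library was thus under both DMSO libraries. The log2 fold change at 2 h was -1.91 (SE 0.18, edgeR adjusted p = 1.34e-09), a level 3.75-fold lower, and at 24 h it was -2.60, or 6.07-fold lower (edgeR adjusted p = 2.61e-13).

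The next 4 losses were chosen, like the first, for their values at 2 h, so a low level at that time is part of the choice. The region chr4:80076611-80076799 had 7.28 and 5.40 CPM in DMSO cells, 1.58 and 1.81 CPM at 2 h, 1.56 and 1.12 CPM at 4 h, and 1.09 and 0.824 CPM at 24 h, with a log2 fold change at 2 h of -1.87 (SE 0.19, edgeR adjusted p = 4.95e-09). The region chr16:20731085-20731219 had 6.89 and 5.05 CPM in DMSO cells, 1.70 and 1.56 CPM at 2 h, 1.60 and 0.719 CPM at 4 h, and 0.723 and 0.887 CPM at 24 h, with -1.83 at 2 h (SE 0.21, edgeR adjusted p = 5.32e-08). In both, the 24 h libraries were the lowest or shared the lowest values with a 4 h library. The fourth, chr1:226971045-226971257, had 7.73 and 6.96 CPM in DMSO cells, 2.12 and 2.57 CPM at 2 h, 2.43 and 1.72 CPM at 4 h, and 1.09 and 1.05 CPM at 24 h, with -1.64 at 2 h (SE 0.16, edgeR adjusted p = 2.63e-09). It also fell after 4 h, by 0.95 on the log2 scale (edgeR adjusted p = 0.0024). The fifth, chr8:93084879-93084972, which is 94 bp wide, had 5.21 and 4.89 CPM in DMSO cells, 1.70 and 1.56 CPM at 2 h, 1.52 and 1.80 CPM at 4 h, and 1.58 and 1.30 CPM at 24 h. Its log2 fold change was -1.62 at 2 h (SE 0.18, edgeR adjusted p = 4.51e-08) and -1.80 at 24 h, while the change between 24 h and 4 h of -0.21 did not pass the test (edgeR adjusted p = 0.562).

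Among regions that met the naming rule given with the processing, the 5 largest gains at 2 h were less secure than the losses. They had group means of 0.697 to 1.78 CPM in DMSO cells. A further gain of at least 2-fold did not meet that rule. The region chr1:46259730-46259844 had 0.840 and 0.665 CPM in DMSO cells, 1.66 and 1.65 CPM at 2 h, 1.21 and 1.32 CPM at 4 h, and 1.28 and 1.74 CPM at 24 h. Its log2 fold change at 2 h was 1.16 (SE 0.29, edgeR adjusted p = 0.0094), but the call was lost with DESeq2 and on leaving out DMSO library B or either 2 h library. The region chrX:23522098-23522192 had 0.728 and 0.665 CPM in DMSO cells and 1.41 and 1.31 CPM at 2 h, with a log2 fold change of 0.97 (SE 0.30) and an edgeR adjusted p of 0.048 that was lost in 8 of 12 alternatives. These were the 4 that leave out a library, DESeq2, a minimum mean count of 30, the fit of the groups compared alone and the replicate block on the letters A and B. The region chr2:26947472-26947586 had 3.07 and 3.80 CPM at 2 h, against 1.79 and 1.76 CPM in DMSO cells, and its gain of 0.95 (SE 0.19, edgeR adjusted p = 0.0011) was lost only without 2 h library B, at an adjusted p of 0.057. Its 24 h level of 2.33 and 2.63 CPM lay between those of the 2 h and DMSO libraries. The other 2, chr2:192798569-192798712 and chr7:44924607-44924728, had log2 fold changes at 2 h of 0.93 and 0.78 (edgeR adjusted p = 0.032 and 0.034), which were lost in 5 and 4 of 12 alternatives. Leaving out DMSO library A or 2 h library A ended both calls, leaving out 2 h library B ended the first, and leaving out DMSO library B ended the second. With DESeq2 both calls were lost, and with the fit of the groups compared alone the first was lost.

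At 4 h, too, most of the regions that passed the test were less accessible than in DMSO cells. Of the 6086-only regions, 505 were lower than DMSO (2.91%, background 5.44%) and 269 were higher (1.55%, background 1.75%), in the same edgeR fit. The higher share was near the background and is no result about these regions. Regions past a 2-fold change numbered 89 lower (0.512%, background 0.695%, 396 regions in all) and 2 higher (0.0115%, background 0.00351%). Again both higher regions of the whole table were 6086-only regions. Median log2 fold changes of the called regions were -0.65 among those lower and 0.52 among those higher, against -0.50 and 0.31 in the other regions. As at 2 h, such medians of called regions do not compare effect size between the 2 sets. Without 4 h library B the lower calls fell to 273, and without 4 h library A or B the higher calls fell to 95 or 117. DESeq2 called 228 lower and 33 higher.

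Of the 5 deepest losses at 4 h, 2 were not among the 5 deepest at 2 h. The region chrX:118850189-118850509 had 9.47 and 8.21 CPM in DMSO cells, 3.40 and 3.21 CPM at 2 h, 2.08 and 2.36 CPM at 4 h, and 2.04 and 1.65 CPM at 24 h. Its log2 fold change was -1.97 at 4 h (SE 0.15, edgeR adjusted p = 4.14e-12). The region chr12:89378897-89379133 had 7.90 and 7.94 CPM in DMSO cells, 3.44 and 2.41 CPM at 2 h, 2.56 and 1.72 CPM at 4 h, and 1.32 and 1.05 CPM at 24 h, with -1.90 at 4 h (SE 0.17, edgeR adjusted p = 1.55e-10). No treated library of either region reached a DMSO library. The other 3 of the 5, on chromosomes 16, 15 and 4, are those given for 2 h, with log2 fold changes at 4 h of -2.34, -2.31 and -2.21.

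Among the gains at 4 h, chr10:81243917-81244072 and chr4:624304-624487 had their highest levels at 24 h. The first had 1.74 and 1.25 CPM in DMSO cells, 2.45 and 2.32 CPM at 2 h, 3.69 and 2.76 CPM at 4 h, and 4.80 and 4.75 CPM at 24 h, with a log2 fold change of 1.14 at 4 h (SE 0.21, edgeR adjusted p = 0.00026) and 1.71 at 24 h (SE 0.19, edgeR adjusted p = 5.24e-09). The second had 3.02 and 2.46 CPM in DMSO cells, 4.32 and 4.47 CPM at 2 h, 5.21 and 5.48 CPM at 4 h, and 6.28 and 6.40 CPM at 24 h, with 0.98 at 4 h (SE 0.16, edgeR adjusted p = 2.05e-05). In the second region the libraries of the 4 groups did not overlap. The remaining 3 were chrX:23522098-23522192 and chr2:26947472-26947586, at 1.03 and 0.93 on the log2 scale, and chr1:936508-936659, at 2.26 and 2.52 CPM at 4 h against 1.51 and 1.13 CPM in DMSO cells. The 4 h call of chrX:23522098-23522192 was lost without any 1 of the 4 libraries compared, and that of chr1:936508-936659 (edgeR adjusted p = 0.0094) without DMSO library B or 4 h library B. In both regions the 4 h call was also lost with DESeq2.

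At 24 h more 6086-only regions rose than fell, in a set whose choice may favour gains at this time. Experiment 6211 ends at 2 h, and the sources used here do not say whether the 24 h libraries helped to define the 6086 regions. A region that entered the set because it was open at 24 h therefore cannot be told apart from one that experiment 6211 missed for another reason, and the excess of gains below is a description of the set. In the edgeR fit 3316 of 17380 were higher than DMSO, which is 19.1% against a background of 13.6%, and 1947 were lower, which is 11.2% against a background of 18.6%. The other regions were higher in 11.2% and lower in 21.9% of cases. The 6086-only regions made up 42.8% of all higher calls and 18.3% of all lower calls. Over all of them 58.5% had a log2 fold change above 0, with a median of 0.06, while 45.4% of the other regions were above 0, with a median of -0.02. Regions share the same libraries and are not replicates, so no test was made of these shares. The 24 h counts stayed within 1.5 times when any 1 library was left out, at 2446 to 2906 higher and 1514 to 1658 lower, while DESeq2 called 1722 higher and 1080 lower.

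**Figure D3:**
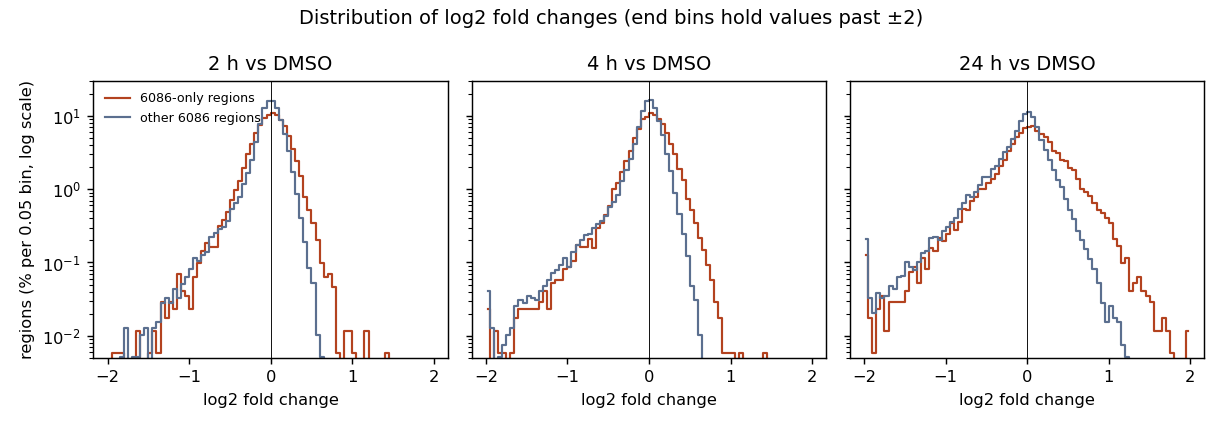
Distribution of log2 fold changes against DMSO at 2 h, 4 h and 24 h, as the percentage of regions per 0.05 bin on a log scale, for 6086-only regions and other 6086 regions; values past 2 in either direction are gathered in the end bins. At 24 h the curve of the 6086-only regions lies further to the right, with medians of 0.06 and -0.02.

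Most of the large gains at 24 h lay in 6086-only regions, which the rule itself may favour as said above. Of the 248 regions of the whole table that rose at least 2-fold (background 0.436%), 219 were 6086-only, which is 88.3%. Among at least 2-fold losses they held 260 of 1109 (background 1.95%), or 23.4%. The 219 large gains had median levels of 3.08 and 2.93 CPM in the DMSO libraries, 3.40 and 3.50 CPM at 2 h, 3.86 and 3.76 CPM at 4 h, and 6.44 and 6.75 CPM at 24 h. The 260 large losses had 6.67 and 6.04 CPM in the DMSO libraries, 4.23 and 4.39 CPM at 2 h, 3.95 and 3.76 CPM at 4 h, and 2.61 and 2.60 CPM at 24 h. The 24 h and DMSO libraries chose both sets, so these medians describe the sets and test nothing.

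Over all calls at 24 h the differences were smaller. The 3316 regions higher at 24 h had median levels of 4.54 and 4.46 CPM in the DMSO libraries, 4.81 and 4.90 CPM at 2 h, 5.21 and 5.08 CPM at 4 h, and 6.58 and 6.75 CPM at 24 h. The 1947 regions lower at 24 h had 6.39 and 6.06 CPM in the DMSO libraries, 5.56 and 5.70 CPM at 2 h, 5.38 and 5.24 CPM at 4 h, and 3.98 and 3.99 CPM at 24 h. The regions that rose were somewhat wider, at a median of 220 bp, than those that fell, at 188 bp, and lay farther from 6211 regions, with median gaps of 11984 and 8653 bp.

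The deepest loss of all was at chr21:33509557-33509974, a region of 418 bp. It had 12.1 and 11.5 CPM in the DMSO libraries, 6.47 and 6.80 CPM at 2 h, 4.42 and 3.92 CPM at 4 h, and 1.05 and 1.43 CPM at 24 h. The 4 groups did not overlap, and each later group was lower than the one before. The log2 fold change at 24 h was -3.24 (SE 0.15, edgeR adjusted p = 3.82e-18), a level 9.43-fold lower. The fall of 1.74 between 4 h and 24 h passed the test as well (SE 0.18, edgeR adjusted p = 1.39e-08). The region chr7:56296040-56296291 had 6.95 and 8.10 CPM in DMSO cells, 3.07 and 3.42 CPM at 2 h, 2.52 and 2.28 CPM at 4 h, and 0.822 and 1.43 CPM at 24 h, with -2.75 at 24 h (SE 0.18, edgeR adjusted p = 1.99e-14). The other 3 of the 5 deepest losses at 24 h, given above, were the regions on chromosomes 16, 1 and 12, at log2 fold changes of -2.85, -2.77 and -2.74.

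The largest gain was at chr16:46952967-46953101, 135 bp wide and 21156 bp from a 6211 region. It had 1.34 and 0.900 CPM in the DMSO libraries, 1.91 and 1.35 CPM at 2 h, 1.95 and 2.00 CPM at 4 h, and 5.03 and 5.04 CPM at 24 h. The log2 fold change at 24 h was 2.21 (SE 0.20, edgeR adjusted p = 5.9e-11), 4.63-fold higher, and most of it came after 4 h: the change between 4 h and 24 h was 1.35 (edgeR adjusted p = 2.31e-07). The region chr6:30647972-30648148 had 1.23 and 1.60 CPM in DMSO cells, 1.41 and 1.86 CPM at 2 h, 2.08 and 2.04 CPM at 4 h, and 5.69 and 5.58 CPM at 24 h, with 1.95 at 24 h (SE 0.18, edgeR adjusted p = 6.33e-11). Its 2 h libraries overlapped those of DMSO, at a log2 fold change of 0.17 that did not pass the test (edgeR adjusted p = 0.803).

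The region chr10:50282988-50283348 was the strongest of the 5 gains at 24 h in level. It had 3.36 and 3.32 CPM in the DMSO libraries, 3.40 and 3.42 CPM at 2 h, 4.68 and 4.36 CPM at 4 h, and 10.6 and 12.1 CPM at 24 h, a log2 fold change of 1.77 at 24 h (SE 0.13, edgeR adjusted p = 2.93e-13). At 2 h its value was 0.03 (edgeR adjusted p = 0.959) and at 4 h 0.43 (edgeR adjusted p = 0.099), so neither earlier time passed the test. The region chr6:151257234-151257436 had 1.62 and 1.80 CPM in DMSO cells, 2.53 and 2.32 CPM at 2 h, 2.86 and 2.36 CPM at 4 h, and 5.20 and 6.21 CPM at 24 h, with 1.72 at 24 h (SE 0.17, edgeR adjusted p = 6.06e-10). All 10 regions named for 24 h kept their call in each of the 12 alternatives tried.

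**Figure D4:**
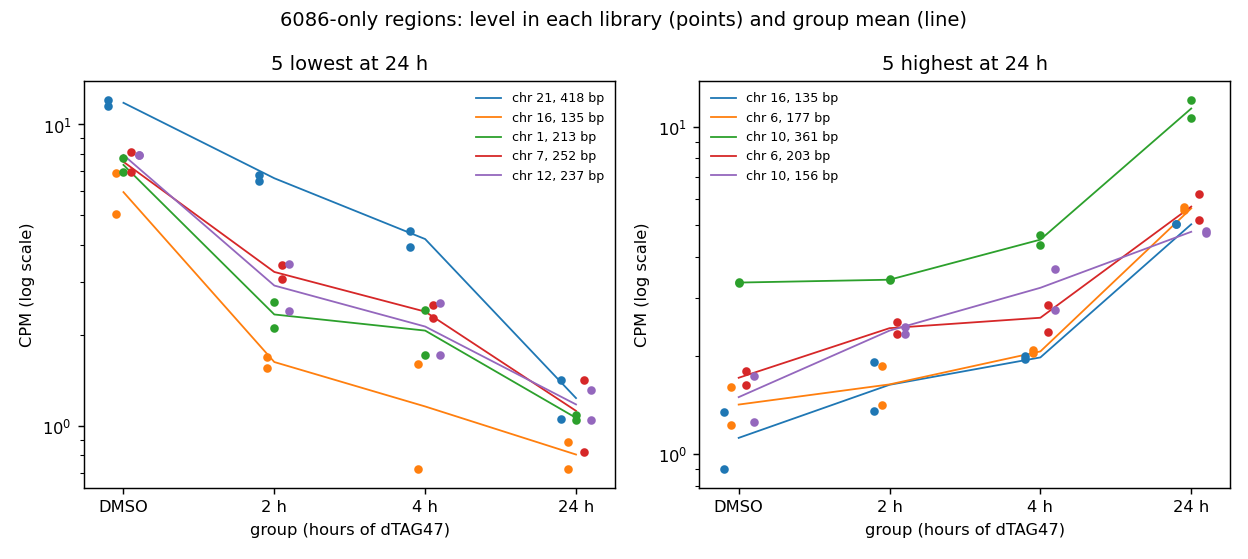
Level in CPM on a log scale of the 5 6086-only regions with the lowest (left) and the 5 with the highest (right) log2 fold change at 24 h, by group; points are libraries (2 per group, shifted sideways per region) and lines join group means. The losses are under their DMSO levels from 2 h on, and the gains reach their highest level at 24 h.

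A direct comparison of 24 h with 4 h uses no DMSO library, although it shares the 24 h libraries with the comparison above, and with them the limit that the choice of the set may favour gains. In the edgeR fit 2244 of the 6086-only regions were higher at 24 h than at 4 h (12.9%, background 8.73%) and 1375 were lower (7.91%, background 13.9%). At least 2-fold changes were 56 higher (0.322%, background 0.107%, 61 in all) and 56 lower (0.322%, background 0.367%, 209 in all). The share of such losses was near the background and is no result about these regions. Leaving out 4 h library A, 4 h library B, 24 h library A or 24 h library B left 770, 879, 902 and 869 lower regions. Without 4 h library B the higher regions numbered 1245, and without 24 h library B 1353. DESeq2 called 782 higher and 488 lower.

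Because the 6086-only regions are weak, their calls were also set beside those of other regions of like level. This leaves untouched any part of the 24 h libraries in the choice of the set. The other regions were chosen as well: all but 4 overlap a region of the experiment that ends at 2 h. That choice may favour regions open at early times. The level used for the bins is a mean that includes the 24 h libraries. The bins therefore cannot separate level from the choice of either set, and the part of each was not tested. Between 4 and 8 CPM at 24 h, 2175 of 11545 6086-only regions were higher (18.8%) and 1405 lower (12.2%), while 432 of 6271 other regions were higher (6.89%) and 1940 lower (30.9%). Between 2 and 4 CPM, 21.7% of the 6086-only regions were higher and 10.1% lower, while 3.06% of the 458 other regions were higher and 20.5% lower. At 8 CPM or more the 6086-only regions were higher in 23.5% and lower in 8.87% of cases, against 12.1% and 20.2% of the other regions. The lowest levels differed in their losses, with few other regions to compare. At 1 to 2 CPM, 37 of 782 6086-only regions were higher (4.73%) and 63 lower (8.06%). Of the 55 other regions in that bin, 0 were higher and 4 lower (7.27%). Under 1 CPM, 4 of 145 6086-only regions were higher and 7 lower, beside 7 other regions in all. The levels within a bin were not identical: between 4 and 8 CPM the medians were 5.49 CPM in the 6086-only regions and 6.57 CPM in the other regions. Gains of at least 2-fold in that bin numbered 95 among 6086-only regions and 5 among other regions. At 2 h in the same bin, 2.27% of the 6086-only regions and 7.62% of the other regions were lower, and 0.537% and 0.686% were higher.

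The share of gains grew with width in the 6086-only regions and in the other regions alike. At 24 h, 428 of 4391 6086-only regions under 150 bp were higher (9.75%), as were 858 of 5377 of those of 150 to 199 bp. Higher regions numbered 1288 of 5161 at 200 to 299 bp and 742 of 2451 (30.3%) at 300 bp or more. In the other regions the higher shares, from the narrowest to the widest class, were 0.832%, 3.27%, 8.59% and 12.8%. The lower shares in the same classes were 11.5%, 10.7%, 11.5% and 11.1% of the 6086-only regions, and 27.7%, 24.0%, 23.9% and 21.0% of the other regions. Level moved with width: the 6086-only regions had a median of 3.78 CPM in the narrowest class and 8.56 CPM in the widest, and its part in the trend was not tested.

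Distance from the 6211 regions also went with the share of gains. At 24 h, 4.52% of the 973 tested regions within 100 bp of a 6211 region were higher and 11.9% lower. From 100 to 999 bp, 9.90% of 3273 were higher and 8.52% lower. From 1000 to 9999 bp, 22.9% of 5050 were higher and 12.6% lower. Beyond that the shares changed little, with 22.0% higher from 10000 to 99999 bp and 23.3% at 100000 bp or more, and 11.4% and 11.2% lower. The nearest regions were also the weakest, at a median of 2.27 CPM within 100 bp, 4.13 CPM from 100 to 999 bp and 5.55 CPM from 1000 to 9999 bp. The part of level in this order was not tested.

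**Figure D5:**
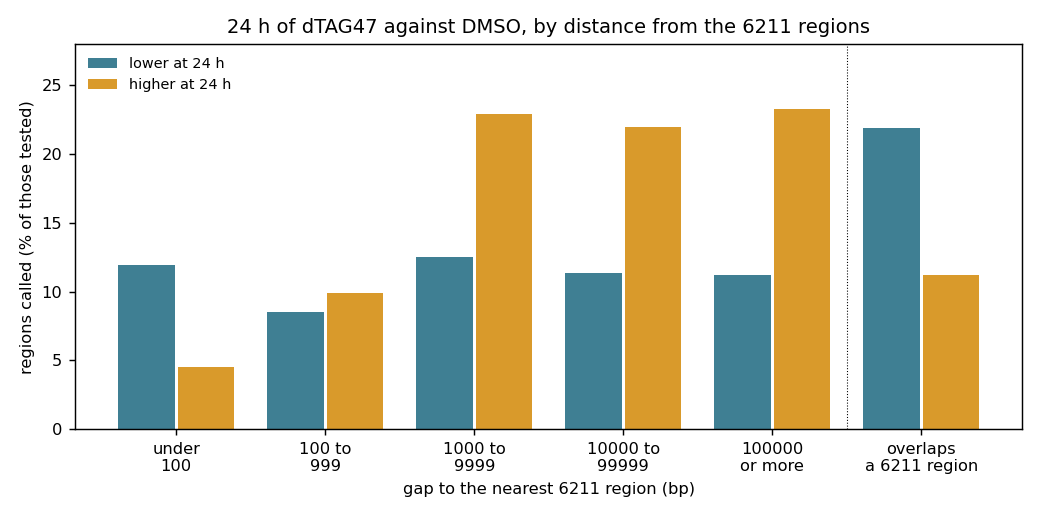
Percentage of regions called lower and higher at 24 h of dTAG47 than in DMSO, for 6086-only regions by their gap in bp to the nearest 6211 region, and, right of the dotted line, for other 6086 regions that overlap a 6211 region. Higher calls are 4.52% within 100 bp and 22.0% to 23.3% from 1000 bp on, against 11.2% in the overlapping regions.

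Experiment 6211, whose libraries and DMSO controls are its own, gave a second reading of the neighbourhood. Of the 405 6086-only regions lower at 2 h, 80 had a 6211 region within 1000 bp, which makes 79 different 6211 regions. In a separate edgeR fit of experiment 6211, the median log2 fold change of these 79 was -0.20 after 0.5 h, -0.30 after 1 h and -0.42 after 2 h, and 91.1% of them were below 0 at 2 h. Lower calls numbered 25 at 1 h (backgrounds 2.47% lower and 0.22% higher) and 39 at 2 h, which is 49.4% against a background of 4.92%. At 0.5 h edgeR called 0 of them at an adjusted p under 0.05 (background 0.00735%), and 33 were lower at an unadjusted p under 0.05. The 2 h count was 25 without DMSO library A of experiment 6211, and also 25 without its 2 h library B, while DESeq2 called 29.

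Around 6086-only regions taken without regard to their change, the 6211 neighbours were called lower about as often as any 6211 region, and higher less often. Of 3976 different neighbours within 1000 bp of any tested 6086-only region, 191 (4.80%, background 4.92%) were lower at 2 h in experiment 6211. Higher calls numbered 52 (1.31%, background 1.97%), and the median log2 fold change was -0.05. Near the 107 regions higher at 2 h there were 22 neighbours with a median of 0.05. Of these, edgeR called 1 lower and 0 higher, DESeq2 called 0 in either direction, and at an unadjusted p under 0.05 there were 5 higher and 2 lower. Within 10000 bp, 52 of 183 neighbours (28.4%) of the regions lower at 2 h were lower, with a median of -0.20, and 5 of 66 neighbours (7.58%) of the regions higher at 2 h were higher. The neighbour of chr8:93084879-93084972, at chr8:93083749-93084149, had -0.42 at 2 h, which did not pass the test (edgeR adjusted p = 0.064).

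Neighbours of the regions called at 24 h were examined in the same way, although experiment 6211 ends at 2 h. Of 390 neighbours within 1000 bp of the regions lower at 24 h, 90 (23.1%) were lower at 2 h in experiment 6211 and 6 (1.54%) were higher. Of 361 neighbours of the regions higher at 24 h, 4 (1.11%) were lower and 17 (4.71%) higher. Over all 6211 regions the backgrounds at 2 h were 4.92% lower and 1.97% higher. The 1.54% was thus near its background and is no result about these neighbours. Without DMSO library A of experiment 6211 the 90 lower calls became 44, and without its 2 h library B 52. The 17 higher calls became 4 and 2 on leaving out the same libraries, and 4 with DESeq2.

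Within experiment 6086 itself, regions shared with 6211 that lay within 1000 bp of a 6086-only region were read in the same libraries. Of 396 such neighbours of the regions lower at 24 h, 217 (54.8%) were lower and 11 (2.78%) higher at 24 h. Of 378 neighbours of the regions higher at 24 h, 131 (34.7%) were higher and 38 (10.1%) lower. Among the 4058 shared neighbours of all tested 6086-only regions, 599 (14.8%) were lower and 428 (10.5%) higher. These values come from the same reads and fit as the 6086-only regions and are no independent reading.

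The 5 strongest 6086-only regions by mean level were broad for this set, at 782 to 934 bp, and 3 of them passed the test at no time against DMSO. The region chr14:104710551-104711332 rose: it had 19.4 and 16.9 CPM in the DMSO libraries, 18.9 and 18.6 CPM at 2 h, 20.8 and 20.4 CPM at 4 h, and 30.5 and 32.3 CPM at 24 h. Its log2 fold change at 24 h was 0.80 (SE 0.08, edgeR adjusted p = 1.95e-10), and the 2 h libraries lay within the DMSO range. The region chr5:1327122-1327989 had 22.9 and 22.8 CPM at 2 h, against 17.8 and 19.4 CPM in DMSO cells, a log2 fold change of 0.29 (SE 0.08, edgeR adjusted p = 0.025). In the authors' deposited table this 2 h change did not pass (authors' adjusted p = 0.185). At 4 h and 24 h the region did not pass the edgeR test either. The strongest region, chr20:31349642-31350525, had 20.7 and 24.4 CPM in DMSO cells, 23.3 and 22.7 CPM at 2 h, 23.1 and 25.6 CPM at 4 h, and 25.7 and 22.4 CPM at 24 h, with overlapping groups throughout. The regions chr4:174090499-174091432 and chr14:94640199-94641105, at 20.9 and 20.8 CPM over the 8 libraries, had log2 fold changes against DMSO between 0.08 and 0.29 without passing the test.

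In the authors' deposited table, which compares the same libraries, fewer 6086-only regions passed an adjusted p of 0.05. At 2 h the authors' deposited table had 151 lower (0.869%, background 2.33%) and 6 higher (0.0345%, background 0.123%). At 4 h the authors' deposited table had 228 lower (1.31%, background 3.37%) and 33 higher (0.190%, background 0.327%). At 24 h the authors' deposited table had 1722 higher (9.91%, background 7.37%) and 1081 lower (6.22%, background 12.5%). The order of the 24 h shares against their backgrounds was the one found with edgeR. These counts are those of the DESeq2 alternative above, apart from 1081 in place of 1080 lower at 24 h. They are therefore no further reading beside it.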

How the data were processed

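ATAC-seq libraries of 2 experiments were analysed, 8 each, in 4 groups of 2. Per the submitters' processing notes, Genrich 0.6.1, Trimmomatic 0.32, deepTools, DiffBind, Bowtie2 and DESeq2 were used with the builds hg19 and dm3, without roles. Coordinates were taken as hg19. Shifting of cuts and treatment of duplicates were not given in the sources used here. Per region, the authors deposited raw read counts in 1 table for each experiment. The deposited comparison tables hold the authors' log2 fold changes and p-values, per the file headers, which were used only where named, and normalised signal columns, which were not used here.

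Column names gave the treatment and time of each library. Their letters, A and B, match no replicate number of the labels and only name libraries. No other per-library columns were present (0). No 2 libraries of a group agreed within sampling noise (chi-square of 1.34 to 1.96 per degree of freedom).

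The tests used edgeR 4.0.16 under R 4.3.3 (TMM, filterByExpr, quasi-likelihood, group means), all 8 libraries of an experiment in 1 fit, with Benjamini-Hochberg adjustment over every region tested. The spread of a region had 4 residual degrees of freedom in each experiment. The median prior degrees of freedom, taken from all regions, were 29.9 in experiment 6086 and 19.6 in experiment 6211. Small p-values therefore rest largely on the spread over all regions. The SE of a log2 fold change is its absolute value over the root of F. The filter left 56945 of 56949 regions in experiment 6086 and 40844 in experiment 6211. The biological coefficient of variation was 3.48% and 5.96%. TMM assumes that most regions do not change, so a uniform change would not be seen. The gap between regions is edge to edge. Fits were tested on simulated data. DESeq2 1.42.0 was an alternative.

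Named regions had a mean count of at least 30, an adjusted p under 0.05 and both treated libraries on one side of both DMSO libraries (log-CPM, prior count 2). Of these, the 5 lowest and 5 highest log2 fold changes at each time were named, with the 5 highest levels. The set of regions, the lists and the rules were chosen with earlier results of these data known. Gene names, motifs, sequences, gene lists and marker checks need an hg19 genome or annotation and are not reported here.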

Additional observations from a re-analysis of the deposited data

How the results depend on the processing

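No direction of a named region reversed in any alternative: of 360 values, 330 kept their side of the threshold and 30, all of gains at 2 h or 4 h, lost it. For counts of 6086-only regions, lower first and higher second, DESeq2 gave 151 and 6 at 2 h, 228 and 33 at 4 h, 1080 and 1722 at 24 h, and 488 and 782 for 24 h against 4 h. Keeping only regions with no 6211 region within 10000 bp gave 219 and 40, 247 and 134, 918 and 1791, and 685 and 1220, since it leaves fewer regions. Fitting only the groups compared gave 62 higher at 2 h. With 1 library left out the counts ranged over 196 to 468 and 40 to 145 at 2 h, 273 to 552 and 95 to 223 at 4 h, 1514 to 1658 and 2446 to 2906 at 24 h, and 770 to 902 and 1245 to 1579 for 24 h against 4 h. Leaving out libraries of experiment 6211, chosen after seeing the data, gave 25 to 40 lower neighbours of regions lower at 2 h, 44 to 107 of regions lower at 24 h, and 2 to 21 higher neighbours of regions higher at 24 h, the last 4 with DESeq2. The cause of these shifts was not tested. A replicate block on the letters A and B, which the differences between libraries did not bear out as pairs (correlations -0.14 to 0.15), gave 386 and 88, 479 and 237, 1910 and 3237, and 1326 and 2144. The share of reads at 24 h was 9.94% with no width limit, 8.16% with no 6211 region within 1000 bp and 4.99% with none within 10000 bp, and that of DMSO 7.55% and 4.62% under the last 2. By mean level, lower regions at 2 h were 0.690% under 1 CPM, 1.92% at 1 to 2, 3.06% at 2 to 4 and 1.82% at 8 CPM or more, and higher ones 0.494% at 2 to 4 and 1.34% at 8 or more. At 4 h they were 1.38%, 3.20%, 3.82% and 1.98% lower, and 0%, 0.639%, 1.09% and 3.10% higher. At 24 h they were 4.83%, 8.06%, 10.1%, 12.2% (4 to 8 CPM) and 8.87% lower, and 2.76%, 4.73%, 21.7% and 23.5% (8 or more) higher. Other scalings moved the median of all regions to between -0.00 and 0.02 on the log2 scale. Having 2 libraries a group and a median of 132 counts per region limit what small changes could be detected.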

Other observations

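The 6086-only regions were spread over chromosomes 1 to 22 and X. Chromosome Y was left out of the values by chromosome. Among the chromosomes kept, their share of the 6086 regions was lowest on chromosome 9, at 24.3%, and highest on chromosome X, at 38.5%. At 24 h the share that rose was lowest on chromosome 19, where 80 of 724 tested 6086-only regions (11.0%) and 110 of 1630 other regions (6.75%) were higher. It was highest on chromosome 4, with 191 of 820 6086-only regions (23.3%) and 214 of 1698 other regions (12.6%) higher. The share that fell was lowest on chromosome X, with 35 of 459 6086-only regions (7.63%) and 110 of 732 other regions (15.0%) lower. It was highest on chromosome 21, with 38 of 264 6086-only regions (14.4%) and 133 of 526 other regions (25.3%) lower. Over the whole table the backgrounds were 13.6% higher and 18.6% lower.

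In windows of 1 Mb, ranked by the number of 6086-only regions called at 24 h after the values were seen, gains were most numerous on chromosome 20 between 36 and 37 Mb and on chromosome 4 between 7 and 8 Mb. In the first window 14 of 29 tested 6086-only regions were higher, with a median log2 fold change of 0.26, and 10 of 46 other regions were higher. In the second, 14 of 45 6086-only regions and 15 of 42 other regions were higher. Losses were most numerous on chromosome 16 between 86 and 87 Mb, where 9 of 19 6086-only regions and 15 of 20 other regions were lower. Regions of a window share libraries, and no test was made of these windows.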
